A study of Saccharomyces cerevisiae W303 with 9 samples.

Results

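The 10 genes described here encode enzymes of adenine nucleotide synthesis in budding yeast, and they are 10 of the 7127 features in a table of read counts. They are ADE4 (YMR300C), ADE5,7 (YGL234W), ADE8 (YDR408C), ADE6 (YGR061C), ADE2 (YOR128C), ADE1 (YAR015W), ADE13 (YLR359W), ADE16 (YLR028C), ADE17 (YMR120C) and ADE12 (YNL220W). The genes were chosen by pathway from their locus names, at a time when results of these libraries were already known. In those earlier results ADE17 stood among the largest decreases of the strain lacking AIM29. The differences of the 10 genes between groups are therefore given as a description, with no p-value printed for any of them. Where edgeR called 0 of them with all libraries at a threshold of 0.05, the number with an unadjusted p under 0.05 is given. A call means only that a gene passed the threshold set for all genes. The lists of other genes were also chosen with earlier results known. The adjusted p-values printed for their genes are therefore a description too, not independent tests.

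The data are 9 libraries of poly(A) RNA from Saccharomyces cerevisiae of the W303 background, in 3 groups of 3 isolates, all grown in rich glucose medium (YPD) to mid-log phase. The construct strain lacks AIM29 and carries pmTDH3-ZPR1, a construct whose prefix the labels do not spell out; Zpr1 helps newly made elongation factor eEF1A to fold, and Aim29 is known to take part in that process. The deletion strain lacks AIM29 and has no construct, and the wild type has neither change. Both the construct strain and its direct comparator thus carry the deletion. Whether the isolates of a strain arose from separate transformations is not given, so the spread between libraries may be partly technical.

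Purines are built on a ribose phosphate in a chain of enzyme steps that ends in inosine monophosphate (IMP), from which a pair of further enzymes makes adenosine monophosphate. In yeast the genes of this chain are switched on together by the DNA-binding protein Bas1 with its partner Pho2 when adenine is scarce, and pathway intermediates promote the contact between these proteins. The histidine pathway joins the chain, because it releases the intermediate AICAR, and several genes of that pathway and of folate metabolism are also Bas1 targets. Strains of the W303 background usually carry a nonsense allele of ADE2, which blocks the chain and gives red colonies; the labels do not say which ADE2 allele these strains carry.

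The genes named in the labels were looked at before the ADE genes. ZPR1 had 4856 to 5645 CPM (counts relative to the library size, with a correction for composition) in the construct strain, 399.5 to 445 in the deletion strain and 322 to 337 in the wild type. AIM29 was at 5.17 to 7.46 CPM in the construct strain, at 0.782 to 3.87 in the deletion strain and at 76.0 to 82.2 in the wild type. Both strains that lack AIM29 by label were thus far below the wild type, though not at 0. Library totals were 18044486 to 20140071 counts in the construct strain, 14380639 to 14586083 in the deletion strain and 15601784 to 17140665 in the wild type, and 3 counts correspond to 0.143 to 0.213 CPM. Construct replicate 3 stood apart from the other construct libraries: over the 5970 genes tested it differed from them by 0.38 and 0.41 (root mean square of log2 CPM), where the other construct pair differed by 0.28 and pairs within the deletion strain or the wild type by 0.21 to 0.23. Results that rest on this library are given with and without it, and all values of the 10 genes are given by library.

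The regulatory sequence of these genes is shown before their values, since the core of the Bas1 site, TGACTC, is also the core of the site of Gcn4, the activator of amino acid synthesis genes. The motif was searched on both strands in the 300 bases before each start codon in the RefSeq R64 reference (strain S288C, not W303). It was present in 8 of the 10 genes, in 14 of 42 other genes of purine and joining pathways, and in 7.76% of 6007 such stretches of nuclear genes. More than 1 copy was present in 4 of the 10 genes, ADE5,7, ADE8, ADE2 and ADE1, and in 0.649% of all stretches. Followed by A, the form TGACTCA preferred by Gcn4 (which contains the shorter motif) was present in ADE12 alone, and in 2.61% of all stretches. The stretch of ADE16 held no copy, also when lengthened to 500 bases. ADE4 held none within 300 bases and 1 copy between 352 and 357 bases before the start codon, so that 9 of the 10 genes had a copy within 500 bases, against 12.7% of 6006 such stretches. A match is a description of letters, not a measured binding site.

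The stretches are shown for the isozyme pair ADE17 and ADE16, whose levels are set side by side, for ADE1 and ADE2, each with a pair of motifs, and for ADE12, with the longer form. Each runs 5′ to 3′ on the strand of the gene and ends just before the start codon, and capitals mark TGACTC or its reverse complement GAGTCA. The stretches lie at chrXIII:509281-509580 (minus strand) for ADE17, chrXII:201316-201615 (minus strand) for ADE16, chrI:169075-169374 (plus strand) for ADE1, chrXV:566192-566491 (minus strand) for ADE2 and chrXIV:234113-234412 (plus strand) for ADE12.
ADE17: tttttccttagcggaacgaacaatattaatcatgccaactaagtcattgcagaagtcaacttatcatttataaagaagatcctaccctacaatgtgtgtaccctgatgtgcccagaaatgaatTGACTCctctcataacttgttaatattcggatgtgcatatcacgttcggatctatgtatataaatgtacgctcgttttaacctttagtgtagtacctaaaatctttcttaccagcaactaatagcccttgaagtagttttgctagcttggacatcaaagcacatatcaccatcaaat
ADE16: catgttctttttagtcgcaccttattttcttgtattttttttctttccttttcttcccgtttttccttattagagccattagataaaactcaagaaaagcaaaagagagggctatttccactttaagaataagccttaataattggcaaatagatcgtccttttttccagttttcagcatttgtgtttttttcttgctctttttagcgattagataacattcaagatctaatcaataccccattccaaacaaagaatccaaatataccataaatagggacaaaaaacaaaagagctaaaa
ADE1: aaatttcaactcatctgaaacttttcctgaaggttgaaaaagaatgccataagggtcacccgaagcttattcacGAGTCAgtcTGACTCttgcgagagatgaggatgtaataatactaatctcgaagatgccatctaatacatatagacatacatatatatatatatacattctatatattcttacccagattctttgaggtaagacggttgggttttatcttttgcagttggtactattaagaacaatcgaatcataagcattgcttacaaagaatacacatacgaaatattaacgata
ADE2: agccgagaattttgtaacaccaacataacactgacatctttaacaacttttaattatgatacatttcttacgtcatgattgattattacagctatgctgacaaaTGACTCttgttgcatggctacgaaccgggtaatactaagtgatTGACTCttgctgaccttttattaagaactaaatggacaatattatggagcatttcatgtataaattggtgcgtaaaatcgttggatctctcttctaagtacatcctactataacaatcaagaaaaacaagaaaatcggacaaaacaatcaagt
ADE12: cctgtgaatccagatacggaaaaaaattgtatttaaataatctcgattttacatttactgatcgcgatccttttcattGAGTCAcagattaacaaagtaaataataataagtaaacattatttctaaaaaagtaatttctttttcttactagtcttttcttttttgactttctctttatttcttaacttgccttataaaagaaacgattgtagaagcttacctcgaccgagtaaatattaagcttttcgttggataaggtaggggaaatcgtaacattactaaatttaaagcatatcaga

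**Figure D1:**
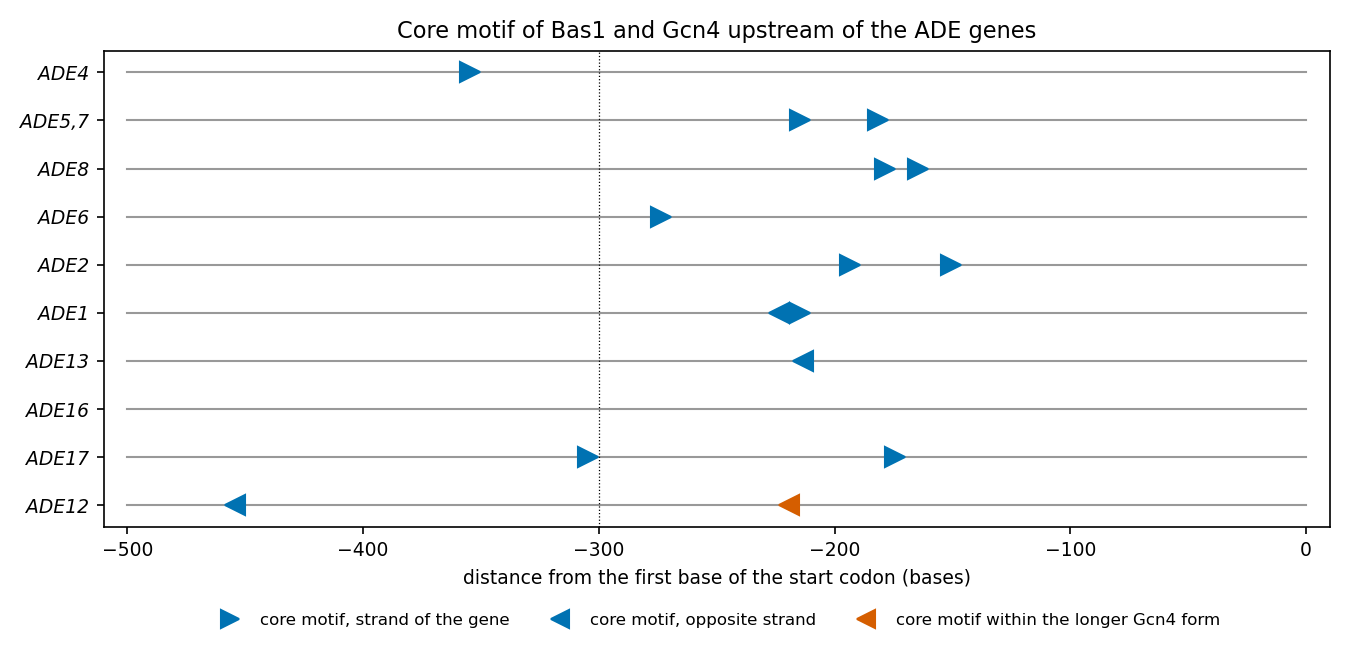
Copies of the core motif shared by Bas1 and Gcn4 in the 500 bases before the start codon of each ADE gene (horizontal axis, distance in bases from the start codon), with arrowheads for the strand and a dotted line at 300 bases. ADE16 has no copy, and the copies of the other genes within 300 bases lie between 148 and 276 bases before the start codon.

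Between the deletion strain and the wild type the question is how loss of AIM29 bears on the pathway. Here 8 of the 10 genes were lower in every deletion library than in any wild-type library, and ADE16 and ADE12 overlapped between the groups. Lower without overlap held for 19.2% of all genes tested. With edgeR's quasi-likelihood test, adjusted over all genes tested by Benjamini and Hochberg's method at a threshold of 0.05, ADE17, ADE1, ADE2 and ADE4 passed the threshold as lower and 0 of the 10 as higher, where 2.16% of all genes were called lower and 4.24% higher. Without composition factors 6 of the 10 were called lower, and that balance over all genes turned to 5.29% lower and 3.13% higher. With any 1 of the 6 wild-type or deletion libraries left out, 0 of the 10 were called, where 0.665% to 0.914% of all genes were called lower. Without construct replicate 3 the number was 7, beside 8.66% of all genes. The median log2 fold change of the 10 genes was −0.39, beside 0.00 over all genes tested. These 10 transcripts together took 0.345% to 0.504% of counts in the construct strain, 0.396% to 0.415% in the deletion strain and 0.516% to 0.565% in the wild-type libraries. Bulk libraries cannot tell less RNA per cell from fewer cells that express a gene.

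ADE4 encodes the amidotransferase that opens the chain by adding an amino group to phosphoribosyl pyrophosphate (PRPP). It lies at chrXIII:865559-867091. Its level was 285, 296 and 211 CPM in construct replicates 1 to 3, against 230, 227 and 228 in the deletion strain and 329, 292 and 315 in the wild type. The deletion libraries were close together and all below the wild type, and construct replicate 3 lay below both groups. The log2 fold change of the deletion strain from the wild type was −0.45 ± 0.11 (SE of the fit), a 1.37-fold difference.

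The products of the next 3 genes carry the chain up to the closed imidazole ring. ADE5,7 encodes a single protein with the enzyme activities of a pair of steps, and it had 1063, 915 and 622 CPM in the construct libraries, 902, 803 and 821 in the deletion strain, against 1097, 1009 and 1062 in the wild type. ADE8, whose product transfers a formyl group from folate, had 187, 176 and 127 CPM in the construct libraries, 167, 162 and 162 in the deletion strain, against 182, 177 and 175 in the wild type. ADE6 encodes the next enzyme, an amidotransferase that uses glutamine, and it had 871, 726 and 683 CPM in the construct libraries, 731, 685 and 694 in the deletion strain, against 921, 845 and 857 in the wild type. These 3 genes lie at chrVII:56482-58890, chrIV:1288215-1288859 and chrVII:611889-615965, in that order. In the deletion strain they were 1.25-fold (ADE5,7), 1.09-fold (ADE8) and 1.24-fold (ADE6) lower than in the wild type and were not called, with ADE6 just outside the threshold. All 3 had separate ranges in these strains, and construct replicate 3 was the lowest of all 9 libraries for each of the 3.

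ADE2 (chrXV:564476-566191) and ADE1 (chrI:169375-170295) encode enzymes whose loss makes colonies red, from a pigment formed by a pathway intermediate. ADE2, the carboxylase, had 338, 350 and 245 CPM in the construct libraries, 290, 266 and 259 in the deletion strain, against 395, 360 and 367 in the wild type. Its transcript was thus abundant in all 9 libraries, with no library or strain in which the gene was lost; an altered allele would not be visible in these counts. ADE1, the SAICAR synthetase, had 278, 276 and 168 CPM in the construct libraries, 215, 200 and 211 in the deletion strain, against 343, 309 and 316 in the wild type. For both genes all wild-type libraries lay above all libraries of the other strains. The deletion strain was lower than the wild type by a log2 fold change of −0.46 ± 0.11 for ADE2 and −0.63 ± 0.15 for ADE1, or 1.38-fold and 1.55-fold.

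ADE13 (chrXII:844282-845730) encodes adenylosuccinate lyase, which acts both in the chain and in the last step to adenosine monophosphate. It had 691, 662 and 397 CPM in the construct libraries, 497, 466 and 463 in the deletion strain, against 720, 680 and 716 in the wild type. Construct replicates 1 and 2 lay near the wild type, and construct replicate 3 lay below every deletion library. The deletion strain was 1.48-fold lower than the wild type (log2 fold change −0.57 ± 0.16), which was not called.

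ADE17 (chrXIII:507502-509280) and ADE16 (chrXII:199540-201315) encode isozymes that carry out the last steps to IMP, and only ADE17 was called; the difference between their fold changes was not tested. ADE17 had 495, 448 and 234 CPM in the construct libraries, 290, 285 and 273 in the deletion strain, against 624, 519 and 528 in the wild type. ADE16 had 322, 317 and 361 CPM in the construct libraries, 319, 334 and 330 in the deletion strain, against 313, 330 and 322 in the wild type. ADE17 was thus lower in every deletion library, and in every construct library, than in any wild-type library, while the deletion and wild-type libraries of ADE16 overlapped. The log2 fold change of the deletion strain from the wild type was −0.98 ± 0.21 for ADE17, a 1.97-fold difference and the largest of the 10 genes, and 0.03 ± 0.06 for ADE16.

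Reads of 50 bases or more from the isozyme pair can be told apart, as the coding sequences share 74.7% of their aligned bases, the longest run they share is 19 bases, and each 50-base window of every one of the 10 coding sequences occurs once in the R64 genome. That run is shown in capitals with 30 bases on either side, bases 1127 to 1205 of each coding sequence, at chrXIII:508076-508154 for ADE17 and chrXII:200111-200189 for ADE16, both on the minus strand.
ADE17: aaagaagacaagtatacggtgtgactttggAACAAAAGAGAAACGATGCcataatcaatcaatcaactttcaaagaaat
ADE16: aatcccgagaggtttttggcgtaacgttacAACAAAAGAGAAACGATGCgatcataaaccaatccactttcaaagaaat

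Within a library the ratio of ADE17 to ADE16 counts does not depend on the scaling between libraries. This ratio was 1.54, 1.41 and 0.648 in construct replicates 1 to 3, 0.908, 0.853 and 0.826 in the deletion strain, against 1.99, 1.57 and 1.64 in the wild type. ADE16 was therefore the more abundant transcript by count in the deletion libraries and in construct replicate 3, and ADE17 in the other 5 libraries; the coding lengths, 1779 bases for ADE17 and 1776 for ADE16, are nearly equal. The deletion and wild-type ranges of the ratio did not overlap. With both genes counted as 1 row, the pair's log2 fold change of the deletion strain from the wild type was −0.52 ± 0.10.

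ADE12 (chrXIV:234413-235714) encodes adenylosuccinate synthase, which leads from IMP towards adenosine monophosphate. It had 616, 496 and 443 CPM in the construct libraries, 628, 591 and 595 in the deletion strain, against 622, 565 and 575 in the wild type. Construct replicates 2 and 3 lay below all other libraries, and the deletion and wild-type libraries overlapped (log2 fold change 0.04 ± 0.10). The direction of ADE12 and of ADE16 in this comparison is not fixed by the data, since without a composition correction both were negative, at −0.01 and −0.02.

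**Figure D2:**
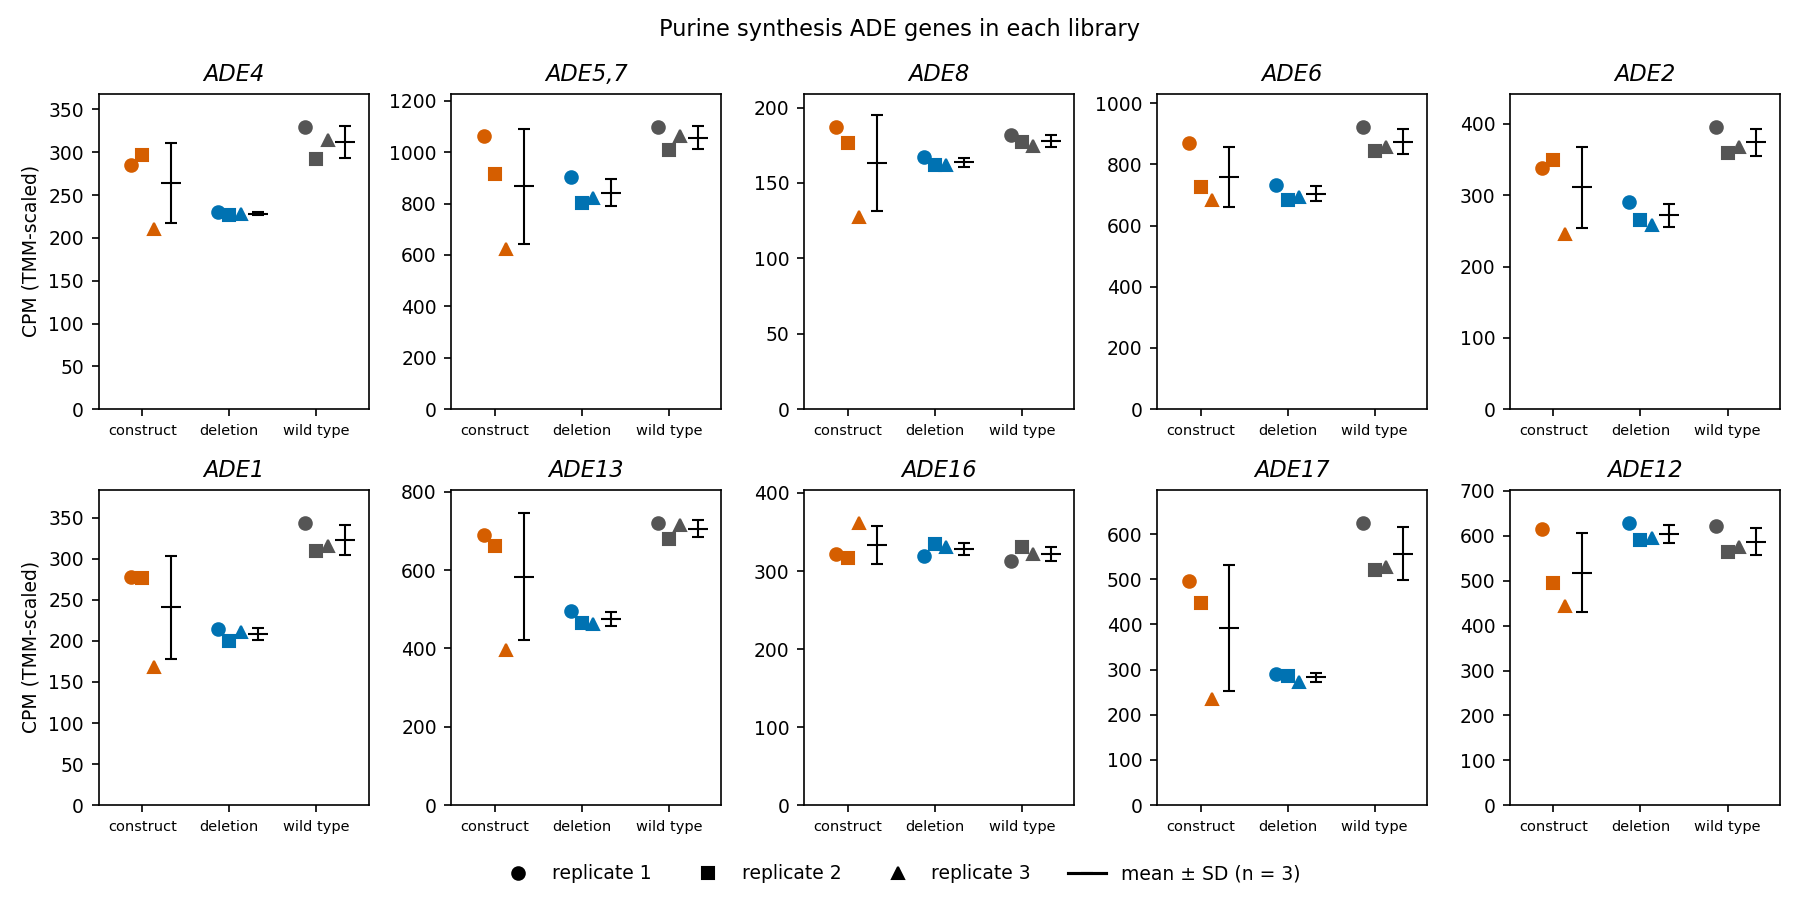
CPM of the 10 ADE genes, 1 panel per gene with the axis starting at 0, for the construct strain (deletion with pmTDH3-ZPR1), the deletion strain and the wild type; markers are replicates 1 to 3 and bars the mean ± SD (n = 3). The deletion libraries lie below the wild-type libraries in all genes but ADE16 and ADE12, and construct replicate 3 (triangle) lies below construct replicates 1 and 2 in all genes but ADE16.

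Levels were compared between genes only per length, as CPM per kilobase of coding sequence. In the wild type ADE13 (487 ± 14.9, SD, n = 3), ADE12 (451 ± 23.2) and ADE5,7 (438 ± 18.3) were the most abundant, followed by ADE1 (350 ± 19.6), ADE17 (313 ± 32.6), ADE8 (276 ± 5.87), ADE2 (218 ± 10.95), ADE6 (215 ± 9.98), ADE4 (203 ± 12.3) and ADE16 (181 ± 4.83). In this order the neighbours ADE12 and ADE5,7, and the neighbours ADE2 and ADE6, differed by less than the SD of either gene, and ADE6 and ADE4 by less than the larger SD. In the deletion strain ADE12 (465 ± 15.5) stood at the top, ADE5,7 had 349 ± 21.8 and ADE13 328 ± 12.96. ADE17 had 159 ± 5.07 CPM per kilobase there, which differed from ADE2 (158 ± 9.68) by less than the SD of either gene.

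Set against the deletion strain, the construct strain shows the same pathway with ZPR1 transcript raised and AIM29 deleted by label in both. The few AIM29 counts were higher without overlap in the construct strain (2.37-fold). AIM29 was not called there with all libraries, but was called higher without construct replicate 3 (2.61-fold). With all 9 libraries 0 of the 10 genes were called by edgeR, DESeq2 or limma-voom, and edgeR gave 1 of them, ADE17, an unadjusted p under 0.05; 1.66% of all genes were called higher and 3.72% lower (3.28% and 3.03% without composition factors). Without construct replicate 1, ADE12 was called lower, but the shares just given are from fits of all 9 libraries. The groups overlapped in all 10 genes. Of the 5970 genes tested, 731 were higher without overlap (12.2%) and 804 lower. Construct replicate 3 lay below every deletion library in 9 of the 10 genes. The share of all genes for which this held is not given here, so the count only describes these genes. Relative to the wild-type mean the median log2 difference of the 10 genes was −0.02, −0.15 and −0.58 for construct replicates 1 to 3, against −0.31, −0.43 and −0.41 for the deletion strain, while that over all genes lay between −0.00263 and 0.00746 in these 6 libraries. What set this library apart was not tested. In construct replicate 3 the 10 genes ran from −1.25 (ADE17) to 0.17 (ADE16).

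Without construct replicate 3, in a fit of 8 libraries, ADE17, ADE13, ADE1, ADE4 and ADE2 were called higher in the construct strain and none lower, where 3% of all genes were called higher. The log2 fold changes were 0.74 ± 0.08 for ADE17, 0.51 ± 0.05 for ADE13, 0.41 ± 0.06 for ADE1, 0.35 ± 0.06 for ADE4 and 0.34 ± 0.06 for ADE2, each an estimate from 2 construct libraries. ADE16 and ADE12 were at −0.04 ± 0.05 and −0.12 ± 0.08. With all libraries ADE17 was at 0.47 ± 0.21 and ADE13 at 0.30 ± 0.16. Over the alternatives run, ADE13 ranged from 0.16 to 0.51, ADE1 from 0.09 to 0.41, ADE4 from 0.12 to 0.35 and ADE2 from 0.10 to 0.34. The upper ends are from the fit without construct replicate 3. In that fit 7 of the 10 genes were called lower in the deletion strain against the wild type, adding ADE13, ADE6 and ADE5,7. The fold changes of that comparison were nearly the same as with all libraries, and the SE was smaller, at 0.07 against 0.21 for ADE17. A fit of the deletion and wild-type libraries alone called 8 of the 10 lower, beside 12.7% of all genes.

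**Figure D3:**
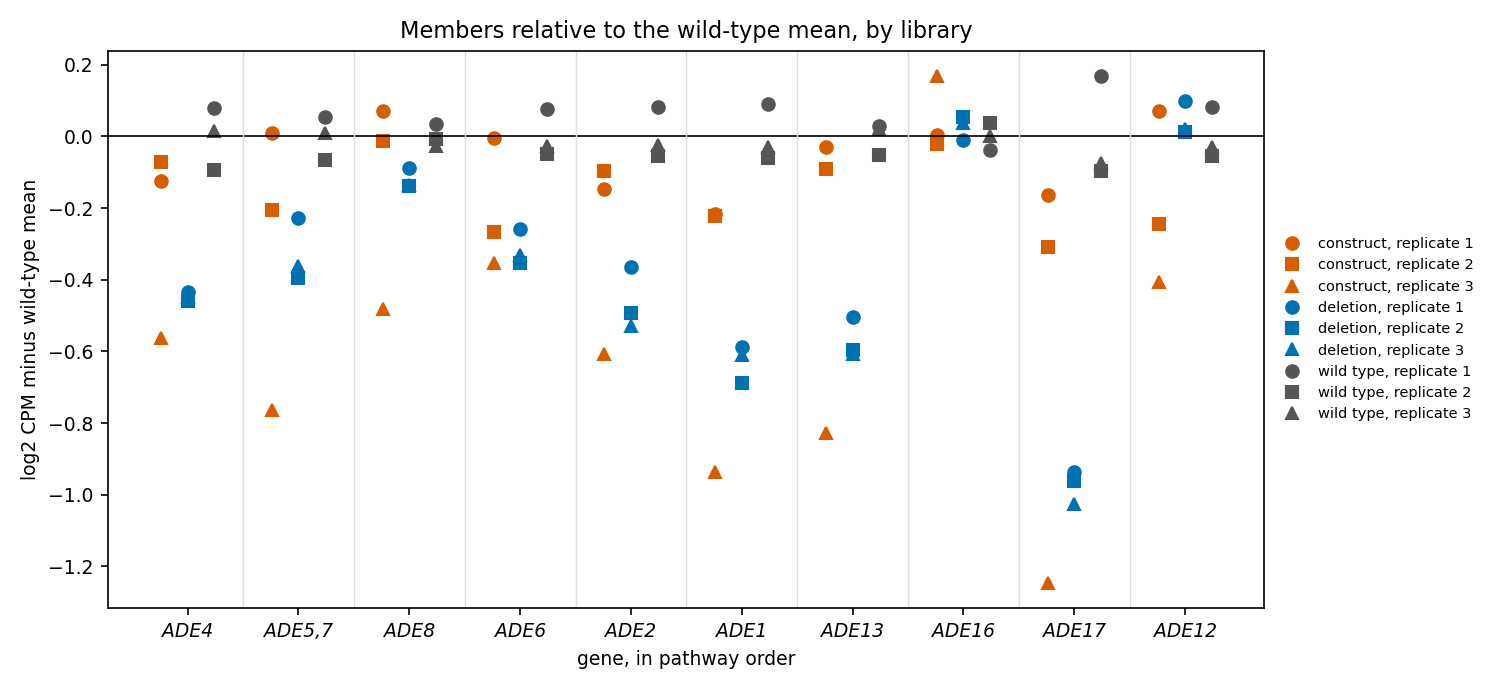
Log2 CPM of the 10 ADE genes minus the wild-type mean (vertical axis), in pathway order, for each library of the construct strain, the deletion strain and the wild type. Construct replicates 1 and 2 lie above the deletion libraries in 7 genes (ADE4, ADE5,7, ADE8, ADE2, ADE1, ADE13 and ADE17), while construct replicate 3 lies below the deletion libraries in all genes but ADE16. The shares of all genes with either pattern are not given here, so these counts only describe the 10 genes.

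Against the wild type, 0 of the 10 genes were called in the construct strain by edgeR, DESeq2 or limma-voom, with 5 at an unadjusted p under 0.05 by edgeR, beside 0.117% of all genes called higher and 0.067% lower. Without construct replicate 1, ADE6 was called lower, but the shares just given are from the fit of all libraries. ADE1, ADE2 and ADE17 were lower in every construct library than in any wild-type library, as were 8.58% of all genes. The log2 fold changes were −0.42 ± 0.15 for ADE1, −0.27 ± 0.11 for ADE2 and −0.50 ± 0.21 for ADE17, and −0.22 ± 0.06, −0.12 ± 0.06 and −0.24 ± 0.08 without construct replicate 3. The 3 comparisons share libraries and are not independent of each other.

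**Figure D4:**
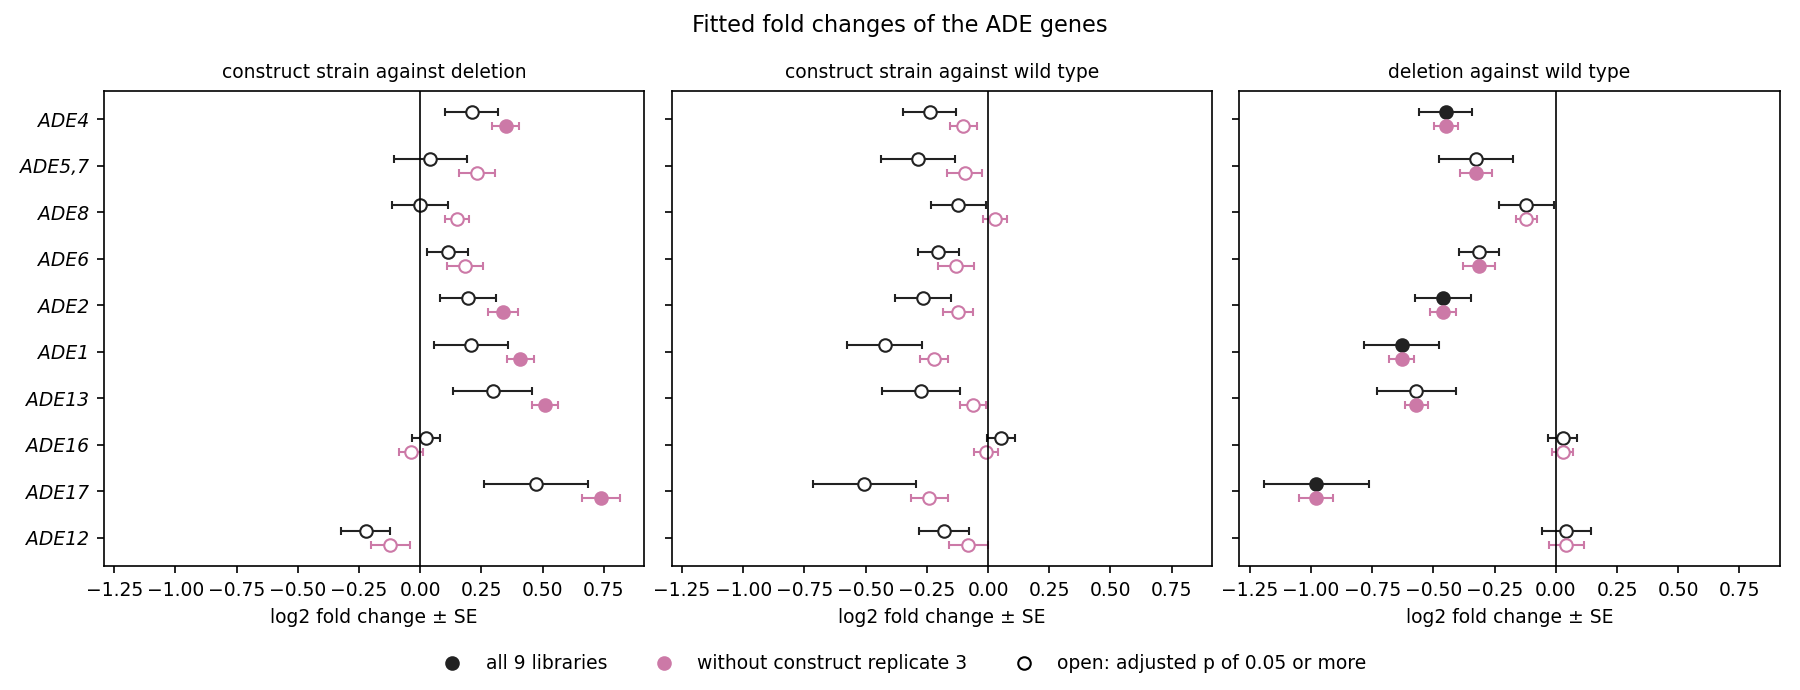
Log2 fold changes with SE of the 10 ADE genes in the 3 comparisons, from all 9 libraries (black) and from 8 libraries without construct replicate 3 (pink); filled points passed an adjusted p under 0.05 over all genes. ADE17 at −0.98 in the deletion strain against the wild type is the largest value, and 5 genes pass in the construct strain against the deletion only without construct replicate 3.

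Other genes of purine and joining pathways, 42 in number, were tested for comparison. Against the wild type the deletion strain had 7 of them higher and 0 lower, beside 4.24% and 2.16% of all genes. The other 35 were not called, and the median log2 fold change was −0.0037. This balance depended on the scaling and the fit. Without composition factors 4 were higher and 4 lower, beside 3.13% and 5.29% of all genes. In a fit of the groups alone 12 were higher and 13 lower, where 14.1% of all genes were called higher and 12.7% lower. Against the deletion strain the construct strain had 5 of them lower and 0 higher, with a median of −0.04, beside 3.72% and 1.66% of all genes. Between the construct strain and the wild type 0 were called by edgeR or DESeq2, and edgeR gave 8 an unadjusted p under 0.05. Without construct replicate 3 the deletion strain had 10 of them higher and 11 lower against the wild type, beside 9.6% and 8.66% of all genes. In that fit the construct strain had 2 higher and 8 lower against the deletion strain, beside 3% and 5.66% of all genes. DESeq2 on all libraries called 7 higher and 3 lower in the deletion strain, beside 365 higher and 232 lower of all 5970 genes tested.

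Of 4 listed Bas1 targets outside purine and folate metabolism, the 3 histidine synthesis genes rose in the deletion strain. Most ADE transcripts were lower there than in the wild type. The core of the Bas1 site is also that of the Gcn4 site, and the activity of neither protein was measured. Whether either of them acted on these genes was not tested. HIS4, which encodes an enzyme of several histidine steps, had 798, 445 and 673 CPM in the construct libraries, 1418, 1318 and 1369 in the deletion strain, against 629, 648 and 613 in the wild type. It rose 2.17-fold in the deletion strain against the wild type (edgeR's quasi-likelihood test, adjusted p = 0.00199) and fell 2.14-fold in the construct strain against the deletion strain (adjusted p = 0.00228). HIS1 rose 1.47-fold in the deletion strain (adjusted p = 0.00205) and HIS7 1.25-fold (adjusted p = 0.0378), and both fell in the construct strain against the deletion strain, HIS1 1.57-fold (adjusted p = 0.000833) and HIS7 1.32-fold (adjusted p = 0.0143). GLN1, for glutamine synthetase, was at −0.21 ± 0.11 in the deletion strain and was not called. In construct replicate 3 HIS4 was near the wild type. Of the 10 ADE genes, 9 (all but ADE16) were at their lowest there, a count without its share over all genes.

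Among 8 genes of folate metabolism, GCV1 and GCV3 of the glycine cleavage system rose in the deletion strain by 0.51 ± 0.13 and 0.51 ± 0.09 (log2 fold change, adjusted p = 0.0385 and 0.00544 by edgeR's quasi-likelihood test), and GCV3 fell in the construct strain against the deletion strain by 0.34 ± 0.08. SHM2, the cytosolic serine hydroxymethyltransferase, had 698, 795 and 498 CPM in the construct libraries, 599, 609 and 606 in the deletion strain, against 920, 762 and 776 in the wild type. SHM2 was thus lower without overlap in the deletion strain (−0.44 ± 0.14) but was not called with all libraries; without construct replicate 3 it was called lower there and higher in the construct strain against the deletion (0.30 ± 0.08). In the fit without that library 6 of the 8 genes were called in the deletion strain, 3 higher and 3 lower. Of all genes 9.6% were called higher and 8.66% lower in that fit. ADE3, a folate enzyme named for its adenine requirement but not among the 10 genes, was at 0.17 ± 0.07 in the deletion strain, where its libraries lay above those of the wild type, and was not called.

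Of the regulators, BAS1 had 93.9, 96.0 and 83.3 CPM in the construct libraries, 112, 114 and 117 in the deletion strain, against 95.4, 96.7 and 97.3 in the wild type. It rose 1.18-fold in the deletion strain (edgeR's quasi-likelihood test, adjusted p = 0.0399) and fell 1.26-fold in the construct strain against the deletion strain (adjusted p = 0.0106). By group, its transcript was thus highest in the strain in which most ADE transcripts were lower than in the wild type. The single libraries did not all follow this. Construct replicate 3 had the lowest BAS1 value, 83.3 CPM, and also the lowest values of 9 of the 10 ADE genes. The share of all genes lowest in that library is not given here. PHO2, the partner of BAS1, was at 0.06 ± 0.08 and GCN4 at 0.13 ± 0.08 in the deletion strain, and neither was called in any comparison. In the construct strain PHO2 was higher without overlap, at 0.23 ± 0.08 against the deletion strain and 0.29 ± 0.08 against the wild type. The GCN4 libraries of the construct strain overlapped with those of both other strains.

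The PRPP synthetase genes (5), the genes of the branch to guanosine monophosphate (4) and those of purine salvage and interconversion (14) held 0 called genes in each of the 3 comparisons by edgeR with all libraries. Without construct replicate 3, 8 of these 23 genes were called in the deletion strain against the wild type, where 9.6% of all genes were called higher and 8.66% lower. PRS3, IMD4, GUA1 (GMP synthase), HPT1, AAH1 (adenine deaminase, −0.30 ± 0.05) and AMD1 were lower and IMD2 and PNP1 (purine nucleoside phosphorylase, 0.23 ± 0.06) higher, and PNP1 was also called lower in the construct strain against the deletion strain. With all libraries, between the deletion strain and the wild type, 1, 2 and 4 of them had an unadjusted p under 0.05, with PRS3 at −0.16 ± 0.05, IMD2 at 0.28 ± 0.10, IMD4 at −0.20 ± 0.07, AMD1 at −0.15 ± 0.05 and HPT1 at −0.17 ± 0.07. Some windows of IMD2 are shared with related genes (66.3% of its 50-base windows are unique), so its value is uncertain. Of 4 purine transport genes the nucleoside transporter gene FUN26 rose in the deletion strain by 0.21 ± 0.05 (adjusted p = 0.0461). FCY21 and FCY22, relatives of the permease gene FCY2, were lower without overlap there, at −0.29 ± 0.11 and −0.37 ± 0.13, and were called without construct replicate 3 but not with all libraries. FCY2, which encodes the purine-cytosine permease, had 874, 802 and 627 CPM in the construct libraries, 1032, 976 and 1010 in the deletion strain, against 1022, 926 and 938 in the wild type. FCY2 was thus lower without overlap in the construct strain, but was not called with all libraries. Without construct replicate 3, FCY2 (−0.26 ± 0.06) and FUN26 (−0.19 ± 0.06) were called lower in the construct strain against the deletion strain. In that fit 5.66% of all genes were called lower.

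**Figure D5:**
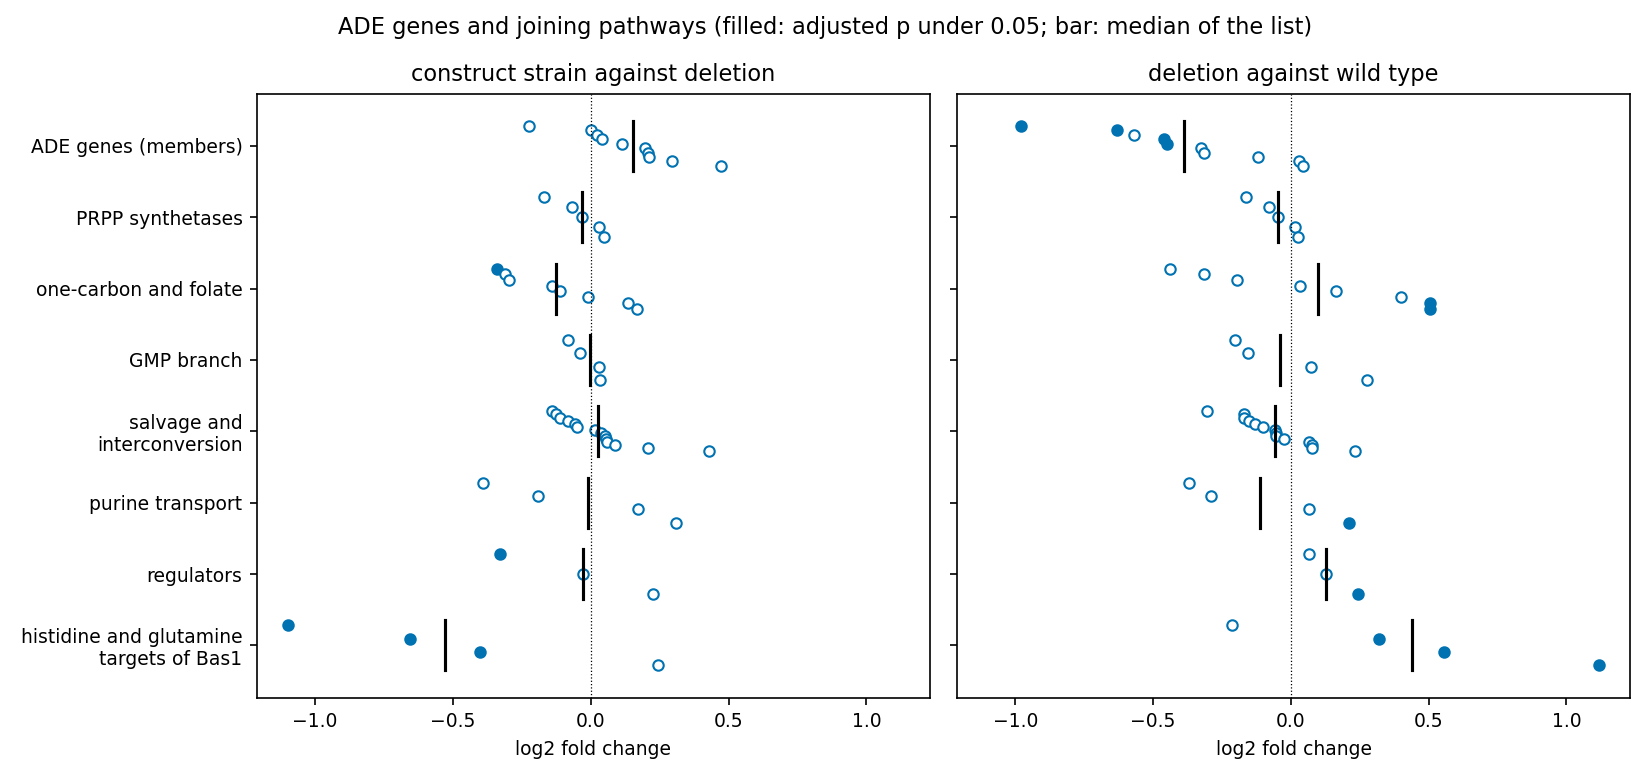
Log2 fold changes (horizontal axis) of the 10 ADE genes and of 42 other genes by list, for the construct strain against the deletion strain and the deletion strain against the wild type; filled points passed an adjusted p under 0.05 and bars mark the list medians. In the deletion strain the ADE genes have the lowest median, −0.39, and the histidine and glutamine list the highest, 0.44.

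Genes used as auxotrophic markers in W303 were examined because ADE2 can serve as one. LEU2 had 0 to 3 counts in all 9 libraries, no more than the floor, and was not tested. HIS3 had 16.1, 10.5 and 13.3 CPM in the construct libraries, 23.96, 24.2 and 25.4 in the deletion strain, against 14.9, 14.5 and 10.1 in the wild type. By edgeR's quasi-likelihood test it rose by 0.89 ± 0.17 in the deletion strain against the wild type on the log2 scale (adjusted p = 0.0108). It fell by 0.89 ± 0.17 in the construct strain against the deletion strain (adjusted p = 0.012). HIS3 thus moved in the same directions as HIS1, HIS4 and HIS7 in these comparisons. The cause of its change was not tested. URA3 fell by 0.42 ± 0.09 in the deletion strain (adjusted p = 0.0231), while TRP1, at 7.80 to 13.4 CPM, and CAN1, at 126 to 164 CPM, were not called in any comparison with all libraries. Without construct replicate 3 CAN1 was called higher in the deletion strain against the wild type (0.26 ± 0.06, adjusted p = 0.00887). No tested marker gene was absent from 1 strain and present in another.

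Likeness of pattern was measured over the 9 libraries as the root mean square difference of log2 CPM, each gene centred on its own mean, among 5051 other genes of at least 10 CPM. Nearest to ADE17 were CHA1 (0.19), MFA1 (0.20), BAR1 (0.22), SST2 (0.25) and ALD6 (0.26), where the median over these genes was 0.50. Nearest to the mean of the 10 genes were TSR3 (0.06), NOP9 (0.06), RRP1 (0.07), UTP30 (0.07) and STE2 (0.07), where the median was 0.24. The nearest gene of each set, CHA1 and TSR3, differed between the deletion strain and the wild type by −0.65 and −0.27 on the log2 scale.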

How the data were processed

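Sample titles gave each library's group and number. The authors deposited raw read counts, whole numbers for every feature in each library, with no scaling. Per the submitters' processing notes FastQC 0.11.5, STAR 2.7.0, DESeq2 1.34.0 and build R64 were used in some role; how reads were counted, and whether strand or multiple mapping was considered, is not given in the sources used here.

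From these counts, filterByExpr kept 5970 of 7127 features, including all 10 ADE genes. A single edgeR 4.0.16 model (R 4.3.3, TMM scaling, glmQLFit with glmQLFTest) held the 3 groups, without covariates. Benjamini-Hochberg adjustment ran over every gene tested in a contrast, at a threshold of 0.05, and log2 CPM had a prior count of 2. The scripts' test was checked on simulated data. The ADE genes and all lists were chosen with earlier results of these data known. Named besides the 10 are the regulators and markers, at most 4 called genes of a list (otherwise the 2 of lowest p) and the 5 nearest in pattern; SHM2, GLN1, ADE3, FCY2, FCY21, FCY22, GUA1, AAH1, PNP1 and the other uncalled genes beyond that were picked after their values were seen, and some genes that the rule allows, PRS4 among them, have no value here. Chi-square per degree of freedom between libraries of a strain was 2.91 to 65.8, above sampling noise in each pair, so none was counted as a copy. Alternatives covered scaling factors, filters, DESeq2 1.42.0, limma-voom (limma 3.58.1), fits of only the contrasted groups, a replicate block, a threshold of 0.01, summed isozymes and single libraries left out. For the other pathway genes, the block and the fit lacking construct replicate 3 were added after seeing the data. Python 3.11.15 read positions and sequences from RefSeq's R64 assembly.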

Additional observations from a re-analysis of the deposited data

How the results depend on the processing

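The 8 ADE genes below the wild type in the deletion strain were so under every alternative run. With all libraries 4 were called; the count was 8 with the 2 groups compared alone and 0 at an adjusted p under 0.01. It ran from 0 (without any 1 of the wild-type or deletion libraries, each of the 6 in turn) to 7 (without construct replicate 3), and ADE17 ranged from −1.03 to −0.89 without single libraries. In the construct strain against the deletion strain the count ran from 0 to 5, with 5 without construct replicate 3 and 1, ADE12 lower, without construct replicate 1. Against the wild type it ran from 0 to 1, with ADE6 lower without construct replicate 1. The shares of all genes called without construct replicate 1 are not given here, so the ADE12 and ADE6 calls have no background beside them. Of the 42 other genes, called against the wild type in the deletion strain, 25 were called with the groups alone, 4 with the replicate block and 21 without construct replicate 3, beside 7; in the construct strain against the deletion strain 2 were called with the groups alone and 10 without construct replicate 3, beside 5. The cause of these changes was not tested. The replicate block called 5 of the ADE genes lower in the deletion strain. Of the 5970 genes tested it called 96 lower and 232 higher. Same-numbered libraries correlated between −0.107 and 0.0745 in their deviations, and differently numbered ones between −0.132 and 0.140. Pairing by number was thus not seen, but with 3 libraries per group this check could not exclude it. The sum of ADE16 and ADE17 remained called. Without composition factors the median of all genes in the deletion strain was −0.05, against 0.00. The fit shares 1 spread over groups of 3 libraries whose biological coefficient of variation was 14.8% in the construct strain (10.1% without replicate 3), 3.76% in the deletion strain, against 5.23% in the wild type.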
